A study of Arabidopsis thaliana with 6 samples.

Results

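Heat shock transcription factors (HSFs) were examined in germinating seeds of Arabidopsis thaliana as a group of 10 genes, chosen by locus identifier: HSFA1A, HSFA1B, HSFA1D, HSFA1E, HSFA2, HSFA3, HSFA9, HSFB1, HSFB2A and HSFC1. All 10 were listed among the 33602 genes of the deposited table. Of the 10, 9 had values and HSFB1 (AT4G36990) was listed without a value in every library, so it was not analysed here. All 9 passed the filter on low counts, as did 18736 genes in all. HSFA1A, HSFA1D and HSFA3 lie on the minus strand and the others on the plus strand (TAIR10.1, used for all positions). The group was defined by gene identity and not by any measured value.

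Poly(A) RNA was sequenced from wild-type seeds (WT, accession Col-0) and from seeds of scl30a-1, a mutant line in the Columbia background named for SCL30a, a gene for an SR protein that acts in splicing. Each genotype had 3 libraries, described as biological triplicates, and the mutant was 1 allele. All seeds (50 mg) spent 3 days in the cold at 4 °C, were placed on MS medium and were harvested 18 h later. During this time they stood at 21 °C under white light that was never switched off (100 µmol/m2). The labels name no heat treatment for either genotype, and they call the material germinating seed in one place and whole seedlings in another. Libraries are named by genotype and by the letter (a, b or c) of their data column.

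HSFs are DNA-binding proteins that switch on chaperone genes. Under heat, class A factors bind heat shock elements, repeats of GAA in alternating orientation, and recruit the transcription machinery. The HSFA1 proteins act first and are held inactive by HSP70 and HSP90 chaperones. They then induce further factors such as HSFA2, which prolongs the response, while HSFA3 is induced through the DREB2 factors. Most class B proteins lack the activation motif and act as repressors. HSFA9 stands apart as a factor of seed maturation. In Arabidopsis it is known to be under control of ABI3, and it activates small heat shock protein genes in the drying seed without heat. ABI3 binds RY repeats, which are found in many seed gene promoters.

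The sequences just upstream of the genes were searched for these elements, and 2 genes are shown here because they differed between the genotypes and hold sites known for HSFs themselves (HSFA2) or for seed regulators (HSFA9). Windows were the 250 bases before the annotated gene start (RefSeq annotation of TAIR10.1), searched on both strands, and capitals mark the matches. In HSFA9 the capitals are an RY stretch, in which CATGCA is found on each strand with an overlap, and a DRE core (CCGAC, a part of the site of DREB factors). In HSFA2 they are 2 heat shock elements (GAANNTTC). The first of these is extended, that is, followed after NN by a further GAA. Heat shock elements were searched only as GAANNTTC. The other order of the repeats, TTCNNGAA, was not searched for on its own, so windows without a match may still hold it.
HSFA9 (chr5:21943733-21943982, plus strand): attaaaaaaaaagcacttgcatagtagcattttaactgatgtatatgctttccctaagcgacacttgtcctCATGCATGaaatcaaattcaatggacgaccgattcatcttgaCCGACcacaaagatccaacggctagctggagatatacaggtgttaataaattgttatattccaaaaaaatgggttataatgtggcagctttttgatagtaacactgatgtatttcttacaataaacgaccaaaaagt
HSFA2 (chr2:11135374-11135623, plus strand): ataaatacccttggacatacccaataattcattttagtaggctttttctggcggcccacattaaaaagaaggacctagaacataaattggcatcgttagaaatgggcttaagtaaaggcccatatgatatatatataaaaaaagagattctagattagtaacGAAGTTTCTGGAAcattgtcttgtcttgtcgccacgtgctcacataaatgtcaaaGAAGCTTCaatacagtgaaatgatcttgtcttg

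Counted from the gene start, where -1 is the last base before it, the RY stretch of HSFA9 ran from -179 to -172 and its DRE core from -137 to -133. The heat shock elements of HSFA2 began at -88 and -33. Among the 10 genes, 1 window held GAANNTTC, 1 the extended form, 1 an RY repeat and 3 a DRE core (HSFA9, HSFA1A and HSFB2A). Of 27443 windows of protein-coding genes, 9.55% held GAANNTTC, 0.386% the extended form, 8.43% CATGCA and 12% CCGAC. These matches were not limited to genes that differed between the genotypes. Of the other 11 HSF genes, 3 held GAANNTTC (HSFA4A, HSFA7A and HSFA7B), in the extended form at HSFA7A and HSFA7B, which were not called. An RY repeat was found at 2 of them, HSFB4, which held an overlapping pair like that of HSFA9 and was not called, and HSFB3, which had 0 to 1 counts per library. None of the 11 held a DRE core. These are letter matches, and binding was not measured.

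**Figure D1:**
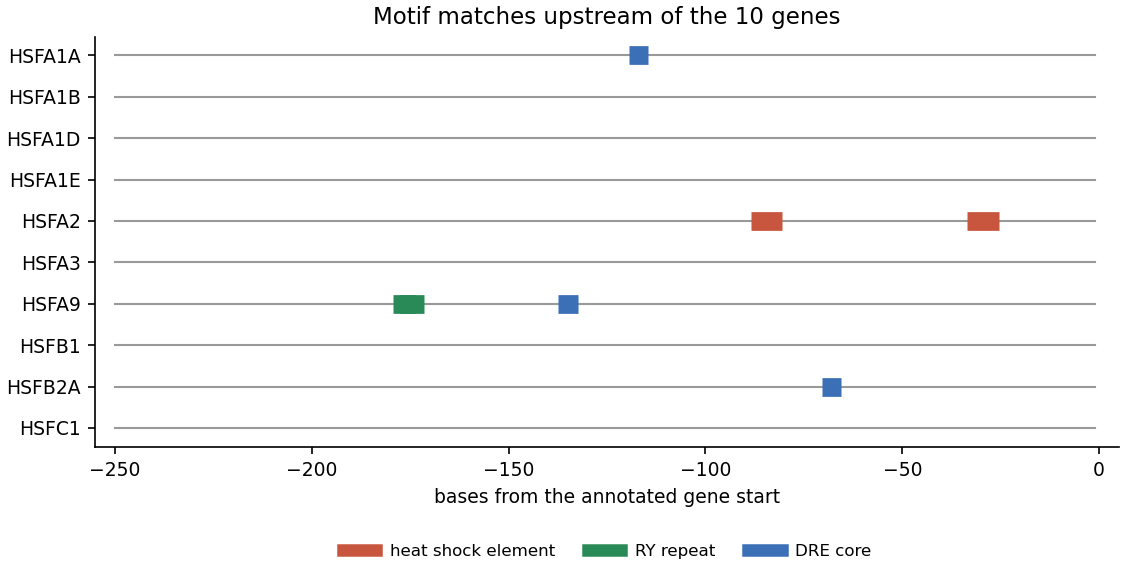
Position of motif matches in the 250 bases before the annotated start of the 10 genes (x axis, bases from the start, 0 at the right). HSFA2 alone among them held heat shock elements of the searched form, GAANNTTC, and HSFA9 alone an RY repeat. HSFA1A, HSFA9 and HSFB2A each held a DRE core.

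Library totals ranged from 70687361 to 84356746 counts in WT and from 77817191 to 85605647 in scl30a-1. SCL30a itself was at 95.1 to 96.9 CPM in WT and 5.59 to 5.90 CPM in scl30a-1, so that all 6 libraries bore out their genotype labels. CPM are counts divided by library size in units of 1e+06, after TMM scaling for differences in composition. A gene was called when its adjusted p in edgeR's quasi-likelihood test (Benjamini-Hochberg over all genes tested) was under 0.05. By that rule 41.7% of all genes tested were called, 21.9% higher and 19.7% lower in scl30a-1. Over all genes tested, called or not, the log2 fold change had a median of 0.00274. The tissue was checked against marker genes: all 8 storage, oleosin and LEA genes of the seed list were detected, and the seed coat genes BAN, TT10 and TT12 had 0 counts in every library, while MUM4, the remaining seed coat gene, was not called (0.10). Whole seeds or seedlings were used, so fewer cells of a type and less RNA per cell cannot be told apart.

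Of the 9 genes tested, 6 were called, 5 higher (HSFA9, HSFC1, HSFA2, HSFA1B and HSFA1E) and 1 lower (HSFA3) in scl30a-1. HSFA1A, HSFA1D and HSFB2A were not called. Over all genes tested, 41.7% were called, 21.9% higher and 19.7% lower. The median log2 fold change of the 9 was 0.26, against 0.00274 for all genes tested. HSFA9 rose 6.15-fold, and the other rises were from 1.198-fold (HSFA1E) to 1.55-fold (HSFC1). For all 9 genes the 3 values of one genotype lay apart from the 3 of the other, 7 with the mutant higher and 2 with it lower. This was the case for 52.1% of all genes tested, 26.9% higher and 25.2% lower. The number called lower became 2, through HSFA1D, with upper-quartile scaling or without composition scaling.

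**Figure D2:**
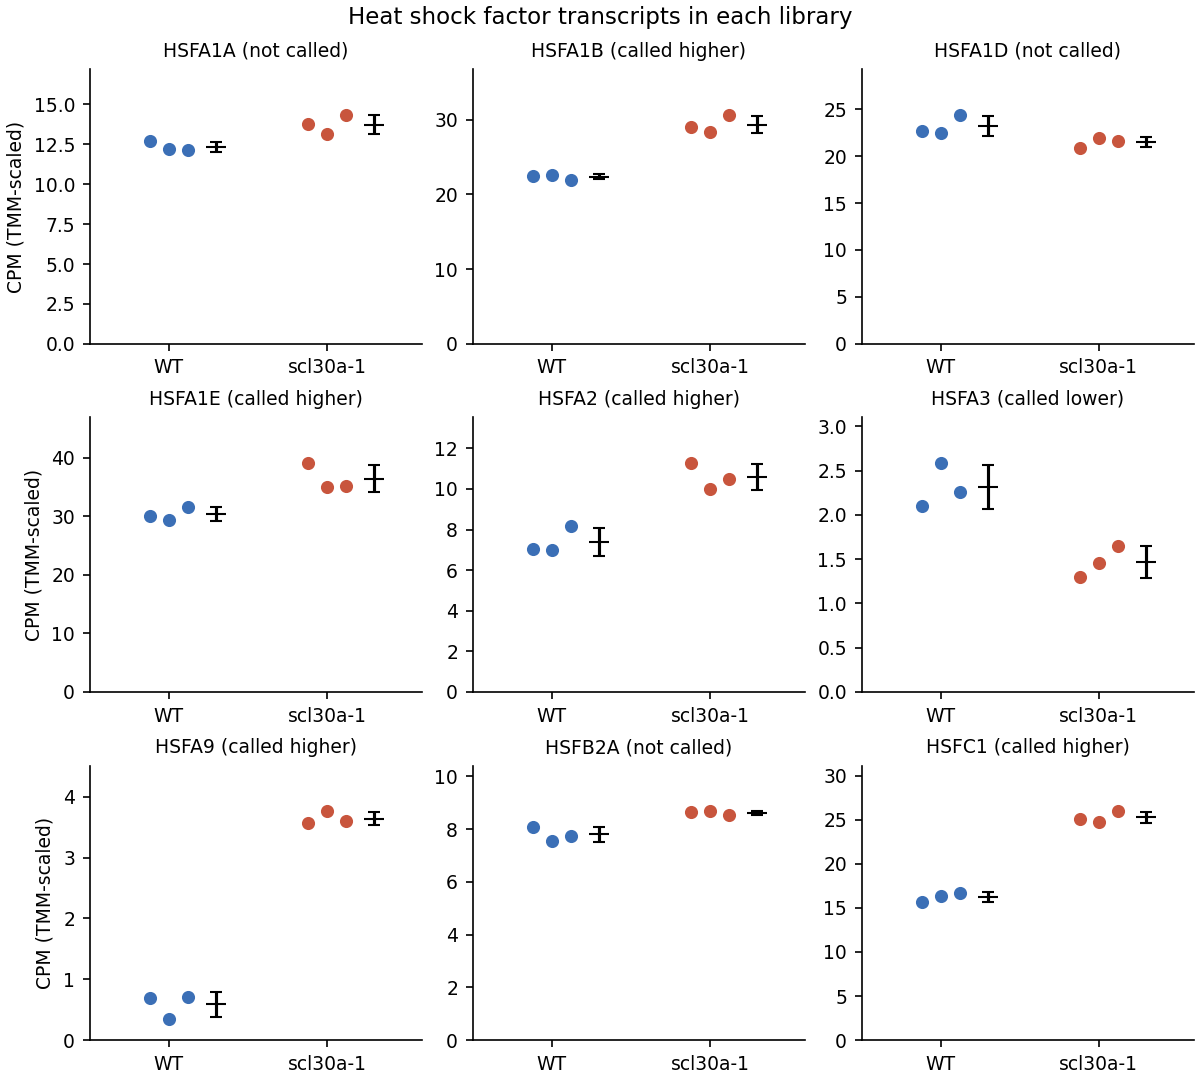
CPM of the 9 tested genes (y axes start at 0), 1 point per library in the order a, b, c, with the mean and SD (n = 3) as a black mark beside each genotype. HSFA9 rose from 0.588 to 3.64 CPM and HSFA3 fell from 2.31 to 1.47 CPM, and for each gene the values of the genotypes lie apart.

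HSFA9 (AT5G54070, chromosome 5 from 21943983 to 21945651 on the plus strand, 3 exons) is the seed maturation factor of the family. Its counts in libraries a, b and c were 50, 27 and 62 for WT and 305, 289 and 279 for scl30a-1. In CPM these were 0.700, 0.352 and 0.713 in WT and 3.57, 3.76 and 3.60 in scl30a-1. Every scl30a-1 library was thus far above every WT library, and the WT values were the more scattered, with library b lowest. The mean went from 0.588 ± 0.205 to 3.64 ± 0.103 CPM (SD, n = 3 each), which the edgeR fit gave as 2.62 on the log2 scale (SE 0.183, adjusted p = 2.59e-06). Among all genes tested, 0.368% had a log2 fold change at least as high. Without WT library b the log2 fold change was 2.36, and it was still called. The 3′ end of the gene, with part of its last 2 exons, overlaps the small nucleolar RNA locus U3D (AT5G54075) on the other strand, and 10.63% of the 36-base words of the HSFA9 transcript occur in transcripts of other loci. U3D itself was listed with 0 to 2 counts per library.

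HSFA9 and the seed marker genes were all higher in scl30a-1. This is a single contrast between genotypes and does not show that their levels vary together. All 8 seed markers were called higher, beside 21.9% of all genes tested, with log2 fold changes from 2.09 (EM6) to 3.02 (CRC). Their summed level was 1241 to 1571 CPM in the WT libraries and 9333 to 10931 CPM in the scl30a-1 libraries. The 2 endosperm genes summed to 191 to 272 CPM in WT and 645 to 802 CPM in scl30a-1, nearly all from EPR1, an extensin-like gene that was called higher (1.66). ZOU, which encodes an endosperm regulator, had 0 to 2 counts per library. Of the 3 genes of green seedling tissue 2 were called lower (LHCB1.3 and RBCS3B), beside 19.7% of all genes tested. All 3 together summed to 453 to 521 CPM in WT and 395 to 503 CPM in scl30a-1. Most of this came from RBCS1A (mean 460 CPM in WT and 422 CPM in scl30a-1), which was not called (log2 fold change -0.12). The part of these cell types or stages in the HSFA9 result was not tested.

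Genes with a pattern most like HSFA9 were looked for by the root-mean-square difference in log2 CPM relative to each gene's own WT mean, over the 6 libraries, among 16861 genes that averaged 50 counts or more. The closest was UPS4 (AT2G03520), a ureide permease gene, with a difference of 0.222 log2 units. It was followed by PXG2 (AT5G55240), a caleosin-type peroxygenase gene, at 0.251, and AT2G05580 at 0.282. PAP85 (AT3G22640), a vicilin-like storage protein gene, was at 0.285 and M17 (AT2G41260), a LEA protein gene, at 0.286. All 5 were more abundant than HSFA9, with WT means from 2.56 CPM (UPS4) to 138 CPM (PAP85). Their log2 fold changes lay between 2.49 and 2.63, near that of HSFA9, which follows from the way they were chosen.

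The 4 HSFA1 genes encode the master activators of the heat response. Of these, HSFA1B and HSFA1E were called higher, and HSFA1A and HSFA1D were not called. HSFA1E (AT3G02990, chromosome 3 from 673428 to 676428) was at 30.1, 29.4 and 31.7 CPM in the WT libraries (a, b, c) and at 39.1, 35.0 and 35.1 CPM in the mutant ones. The mutant libraries were all higher, library a the most, and the gene was called (log2 fold change 0.26, SE 0.0570, edgeR adjusted p = 0.00479). HSFA1B (AT5G16820, chromosome 5 from 5530195 to 5532889) was at 22.5, 22.65 and 21.96 CPM in WT and 29.0, 28.4 and 30.6 CPM in scl30a-1. The 3 WT values were nearly equal and well below those of the mutant. HSFA1B rose by 0.39 on the log2 scale (SE 0.0486, edgeR adjusted p = 0.000151). Its last bases overlap SYP21 (AT5G16830) on the other strand, which also rose (log2 fold change 0.22), but only 0.46% of the HSFA1B words are shared with it.

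HSFA1A (AT4G17750, chromosome 4 from 9869818 to 9871646) was at 12.7, 12.2 and 12.1 CPM in WT and 13.8, 13.1 and 14.3 CPM in scl30a-1. These values did not overlap, but the difference was small and missed the threshold (log2 fold change 0.15, 95% interval 0.03 to 0.28, edgeR adjusted p = 0.0512). Without scl30a-1 library b it was called, at 0.19. HSFA1D (AT1G32330, chromosome 1 from 11656964 to 11660471) was at 22.7, 22.5 and 24.4 CPM in WT and 20.9, 21.95 and 21.6 CPM in scl30a-1. It was the only HSFA1 gene with lower values in the mutant, and it was not called (log2 fold change -0.11, 95% interval -0.23 to 0.00409, edgeR adjusted p = 0.112). It was called lower with upper-quartile scaling (-0.18) or no composition scaling (-0.16). Per kilobase of the longest annotated transcript, the summed level of the 4 genes was 45.5 CPM in WT (SD 0.856) and 52.1 CPM in the mutant (SD 1.17, n = 3 each).

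HSFA2 (AT2G26150, chromosome 2 from 11135624 to 11137792), the heat-induced factor whose upstream region with 2 heat shock elements is printed above, was at 7.02, 6.98 and 8.15 CPM in WT. In scl30a-1 it was at 11.3, 9.97 and 10.5 CPM. The highest WT library, c, stayed below the lowest mutant library, b. In the edgeR fit the rise was 1.43-fold, or 0.52 on the log2 scale (SE 0.0804, adjusted p = 0.000668). The annotation gives 4 transcripts for HSFA2, which the gene counts do not separate.

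HSFA3 (AT5G03720, chromosome 5 from 971142 to 974326) acts downstream of DREB2 factors. It was the one gene of the group that was called lower with TMM scaling. Its counts were 150, 198 and 196 in WT and 111, 112 and 128 in scl30a-1, or 2.10, 2.58 and 2.25 CPM against 1.299, 1.46 and 1.65 CPM. The highest mutant library was below the lowest WT library. The fall was 0.66 on the log2 scale (log2 fold change -0.66, SE 0.129, edgeR adjusted p = 0.00259), leaving 0.634 of the WT level. Genes of the DREB2 family, to which its known activators belong, went the other way. DREB2A (log2 fold change 0.54), DREB2B (0.64) and DREB2C (0.32) were all called higher.

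Class B was represented by HSFB2A, a repressor gene (AT5G62020, chromosome 5 from 24915807 to 24917643). It was at 8.09, 7.55 and 7.75 CPM in WT and at 8.63, 8.67 and 8.55 CPM in scl30a-1. The values did not overlap, yet the difference was not called (log2 fold change 0.14, 95% interval 0.01 to 0.28, edgeR adjusted p = 0.0834). Class C has a single gene in Arabidopsis, HSFC1 (AT3G24520, chromosome 3 from 8941066 to 8942874). It was at 15.66, 16.4 and 16.7 CPM in WT and 25.1, 24.7 and 25.9 CPM in scl30a-1. The values were tight within each genotype and far apart between them, and edgeR gave a rise of 0.64 on the log2 scale (SE 0.0497, adjusted p = 5.88e-06). The HSFC1 transcript is covered almost in full by a long noncoding RNA on the other strand, AT3G24518, and 94.56% of its words are shared with it. Whether the counting used strand is not stated, so the HSFC1 value is uncertain. AT3G24518 had 548, 588 and 719 counts in WT and 619, 468 and 558 in scl30a-1, with a log2 fold change of -0.20 that was not called (edgeR adjusted p = 0.0736).

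**Figure D3:**
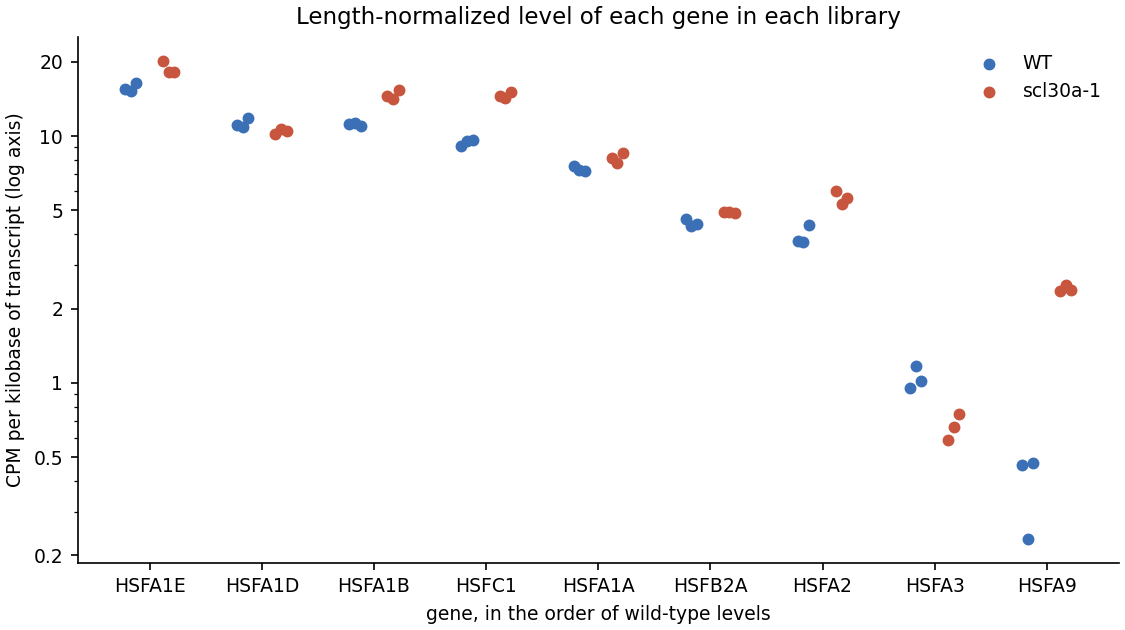
Level per transcript length (CPM per kilobase, log axis) of the 9 genes in each of the 6 libraries, ordered by the WT mean. HSFA1E was highest in both genotypes, and HSFA9 passed HSFA3 in scl30a-1.

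Levels were compared between genes as CPM per kilobase of the longest annotated transcript. HSFA1E was highest in both genotypes, at 15.72 ± 0.602 in WT and 18.8 ± 1.197 in scl30a-1 (SD, n = 3 here and below). In WT it was followed by HSFA1D (11.3 ± 0.505), HSFA1B (11.2 ± 0.180), HSFC1 (9.41 ± 0.300) and HSFA1A (7.34 ± 0.180). The lower end held HSFB2A (4.45 ± 0.154), HSFA2 (3.94 ± 0.355), HSFA3 (1.05 ± 0.112) and HSFA9 (0.389 ± 0.135). Neighbours overlapped in their libraries only at HSFA1D with HSFA1B and at HSFB2A with HSFA2.

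In scl30a-1 the order after HSFA1E was HSFA1B (14.7 ± 0.577), HSFC1 (14.6 ± 0.369), HSFA1D (10.4 ± 0.265), HSFA1A (8.17 ± 0.360) and HSFA2 (5.64 ± 0.347). HSFB2A (4.91 ± 0.0375), HSFA9 (2.41 ± 0.0679) and HSFA3 (0.664 ± 0.0796) came last. The only overlapping neighbours were HSFA1B and HSFC1. HSFA1D thus stood below HSFC1 in the mutant and above it in WT, and HSFA9 and HSFA3 exchanged the last places, without overlap in either genotype.

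The remaining 11 HSF genes of the 21-gene family were compared to see how far the group stood for the rest. Of these, 9 were tested and 2 were called, beside 41.7% of all genes tested. Both were higher, HSFA4A (from 4.70 ± 0.458 CPM to 7.97 ± 1.08 CPM, edgeR adjusted p = 0.000439) and HSFA8 (from 6.35 ± 0.0693 CPM to 7.82 ± 0.367 CPM, edgeR adjusted p = 0.00511). The median log2 fold change of the 9 was 0.10, and that of all 18 tested HSF genes was 0.15. HSFA6A had 0 counts in every library, and HSFB3 had 1 count in 1 library. HSFA7B was the most abundant HSF, at 25.5% ± 1.61 of the family's summed level per kilobase in WT, and it was not called (log2 fold change -0.03, 95% interval -0.19 to 0.13). HSFB4 (-0.01) and HSFB2B (0.05) were not called either.

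The summed level of the 20 family genes with values was 128 ± 2.04 CPM per kilobase in WT and 146 ± 1.70 in scl30a-1. The share of HSFA9 in it went from 0.304% ± 0.105 to 1.65% ± 0.0556, and that of HSFC1 from 7.36% ± 0.349 to 10.02% ± 0.327. The 4 HSFA1 genes together held 35.6% ± 0.997 in WT and 35.7% ± 0.734 in scl30a-1. HSFA9 therefore remained a minor part of the HSF transcripts in both genotypes.

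**Figure D4:**
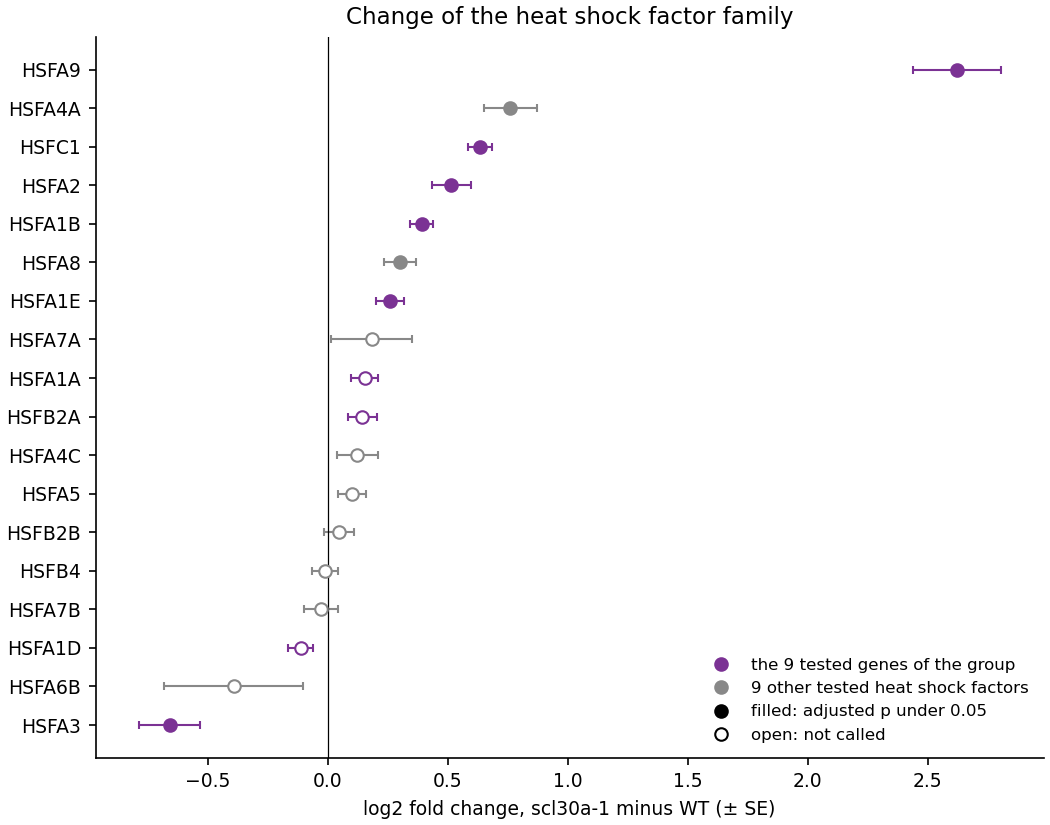
Log2 fold change (scl30a-1 minus WT) ± SE from the edgeR fit for the 18 tested HSF genes, the 9 of the group in purple and 9 others in grey, filled where called. HSFA9 stands at 2.62, and all other HSF genes lie between -0.66 and 0.76.

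Regulators and partners of HSFs came next. Of 13 genes, all were tested and 10 were called, 9 higher and 1 lower, where 41.7% of all genes tested were called, 21.9% higher and 19.7% lower. Their median log2 fold change was 0.30 against 0.00274 for all genes. The cofactor gene MBF1C rose from 6.31 ± 0.436 CPM in WT to 14.1 ± 2.32 CPM in scl30a-1, by 1.16 on the log2 scale (SE 0.115, edgeR adjusted p = 3.45e-05). DREB2A, the AP2-type activator of HSFA3, rose from 76.0 ± 0.694 CPM to 110.7 ± 7.72 CPM. FES1A, an HSP70 cofactor gene, rose by 0.40 on the log2 scale and NF-YC10, a partner of DREB2A, by 0.30. HSBP, which encodes a negative regulator that binds HSFs, was at 33.9 ± 2.85 CPM in WT and 31.0 ± 1.35 CPM in scl30a-1 and was not called. Named after its value was seen, the called gene with a fall was ROF2, an immunophilin gene (log2 fold change -0.35).

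Among HSF targets, 14 of 16 small heat shock protein genes were called higher and 1 lower (median log2 fold change 0.93), the strongest being AT4G10250, a gene for a small heat shock protein of the endoplasmic reticulum, at 1.99. Named after its value was seen, the called gene with a fall was AT4G21870 (-0.33). Of 13 cytosolic HSP70, HSP90, HSP101 and HOP chaperone genes, 8 were called higher and 1 lower (median 0.18). For both lists the share of all genes called higher was 21.9% and lower 19.7%. The heat-inducible genes HSP70-4 (1.08), HSP70-5 (1.09), HSP101 (0.997) and HSP90.1 (0.72) rose. HSP90.2 (-0.03) and HSP90.3 (0.02), named after their values were seen, were not called. HSP70-1 was called lower (log2 fold change -0.24, edgeR adjusted p = 0.0466), with values that overlapped between genotypes, and was no longer called in 4 of the 6 fits that left out a library. In the 250-base windows, GAANNTTC was found upstream of 4 of the 16 small heat shock protein genes and 0 of the 13 chaperone genes. It was found in 9.55% of the windows of all protein-coding genes. Since TTCNNGAA was not searched for, these counts do not show which genes lack a heat shock element.

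**Figure D5:**
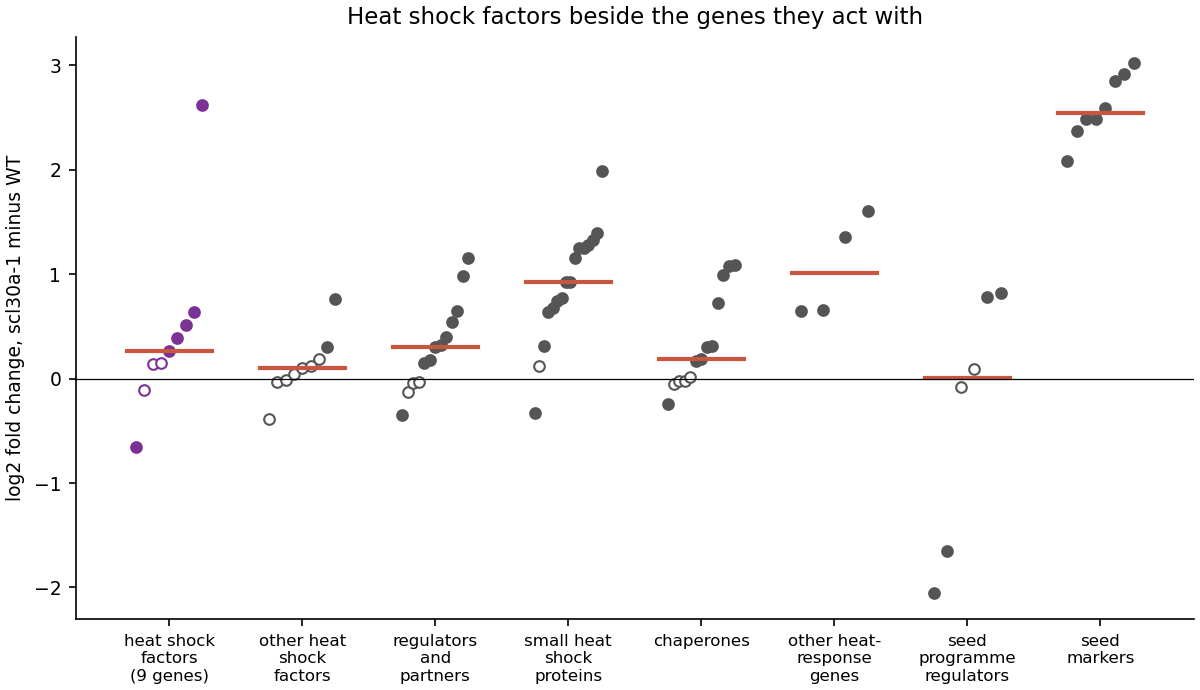
Log2 fold change (scl30a-1 minus WT) of each tested gene in 8 lists, filled where called, with the median of each list as a red line. The 9 HSF genes of the group had a median of 0.26, the 9 other tested HSF genes 0.10, the small heat shock proteins 0.93 and the seed markers 2.54.

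ABI3, the regulator known to act upstream of HSFA9, was abundant in both genotypes and was not called. It was at 394 ± 23.2 CPM in WT and 422 ± 27.3 CPM in scl30a-1 (log2 fold change 0.10, 95% interval -0.05 to 0.24, edgeR adjusted p = 0.257), with overlapping libraries. HSFA9 thus differed between genotypes where the ABI3 transcript was not shown to. The abundance of the ABI3 protein was not measured here.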

How the data were processed

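Counts per gene were deposited by the authors as raw, unpooled values, 1 column per library, per the file headers. The genome build was TAIR10, per the submitters' processing notes. The aligner, the counter, filters and the use of strand are not given in the sources used here. Column names gave a genotype and a letter, so columns were assigned to genotypes and not to replicate numbers. Only 1 measure, the counts, was used. The 6 columns of cRPKM were not used. Levels between genes, planned in cRPKM, were instead CPM per kilobase of the longest RefSeq transcript. Genes without a value (1213) were left out.

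Genes were kept by filterByExpr (minimum count 10) and tested with edgeR 4.0.16 in R 4.3.3 (TMM, quasi-likelihood F test, genotype as the only term, 3 against 3 libraries). SEs were derived from the F statistic, and intervals are at 95%. The smallest two-sided p of an exact permutation test here is 0.1, so no such test was used. P-values weigh the difference between genotypes against the spread between these libraries. Within genotypes, pairs of libraries differed by more than sampling noise (chi-square per degree of freedom 4.76 to 20.0). A floor of 3 counts was 0.0350 to 0.0424 CPM, for counting error only.

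Coordinates, overlaps, 36-base words and upstream windows came from RefSeq TAIR10.1 by locus identifier. The alternatives were other scalings and filters, DESeq2 1.42.0, limma-voom 3.58.1, each library left out, the column letter as a block (chosen after seeing the data) and a stricter threshold. All 10 genes were to be described, up to 5 called genes of each further list by smallest p, and DREB2A, DREB2C, HSBP, MBF1C and ABI3 regardless of result. The genes and lists were chosen with earlier results of these data known. No batch was given, so batch and genotype cannot be told apart.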

Additional observations from a re-analysis of the deposited data

How the results depend on the processing

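All 6 called HSF genes kept their direction and their call in all 14 alternative fits, HSFA9 between 2.36 (without WT library b) and 2.79 (without WT library c). HSFA1D was called at -0.16 with no composition scaling and at -0.18 with upper-quartile scaling, so that 2 of the group were called lower in each, and HSFA1A at 0.187 without scl30a-1 library b. With each library left out in turn, HSFA1A ranged from 0.114 to 0.187 and the number of the group called from 6 to 7. The cause was not tested. Genes called overall fell to 5008 at an adjusted p under 0.01, by construction, and ranged from 5825 to 8075 with a library left out. With medians over libraries, 2 genes changed rank in WT (HSFA1D and HSFA1B) and 2 in scl30a-1 (HSFA1B and HSFC1), the overlapping neighbours. Over all genes, 4106 calls were higher and 3700 lower, against 3119 and 4589 with no composition scaling and 2961 and 5258 with upper-quartile scaling. The fits on cRPKM were not run. The columns carry letters and no replicate numbers. Libraries with the same letter deviated from their genotype means with correlations of -0.0772 (a), 0.238 (b) and 0.248 (c) over 18736 genes. Libraries b and c of WT were each closest to the scl30a-1 library of their own letter. Library a of WT was closest to library b of scl30a-1 (0.196). These values do not settle whether the letters are pairs, and the main fit did not take them as pairs. With the letter as a replicate block, a fit chosen after seeing the data, 8940 genes and 7 of the group were called, HSFA1A among them (0.154, edgeR adjusted p = 0.0472), and no other HSF gene of the group changed its call. At 27 to 62 counts, HSFA9 in WT had the thinnest data of the group.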

Other observations

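All 4 other heat-response genes tested were called higher in scl30a-1, as were 21.9% of all genes tested. GOLS1, a galactinol synthase gene, rose from 13.2 ± 0.640 CPM in WT to 33.9 ± 2.04 CPM in scl30a-1 (edgeR adjusted p = 1.07e-07), and MIPS2, which encodes a myo-inositol phosphate synthase, rose by 1.61 on the log2 scale. HSA32 and BAG6 rose by 0.66 and 0.65. APX2, an ascorbate peroxidase gene widely used as a heat marker, had 1 to 6 counts per library and was not tested.

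Regulators of the seed programme went both ways, with 2 of 6 called higher and 2 lower, beside 21.9% and 19.7% of all genes tested. ABI5 (log2 fold change 0.82) and FUS3 (0.78) were called higher. LEC1 and LEC2 were called lower (-2.05 and -1.65), at 4 to 7 and 2 to 11 counts per scl30a-1 library against 21 to 26 and 15 to 24 in WT. ABI4, like ABI3, was not called (-0.08).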
